A study of Caenorhabditis elegans with 12 samples.

Results

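The insulin signalling pathway of Caenorhabditis elegans was followed through 8 genes, each identified by its gene identifier in the deposited count table. They are daf-2 (CELE_Y55D5A.5), age-1 (CELE_B0334.8), daf-18 (CELE_T07A9.6), pdk-1 (CELE_H42K12.1), akt-1 (CELE_C12D8.10), akt-2 (CELE_F28H6.1), sgk-1 (CELE_W10G6.2) and daf-16 (CELE_R13H8.1). All 8 were found among the 46929 genes of the table, and all 8 were among the 14610 genes with enough counts to be tested. The messenger RNA of whole adult worms on 4 diets was sequenced, with 3 libraries per diet and 12 in all. Worms were fed either a nuclear extract made from bovine thymus, the desiccated gland, a cytoplasmic extract made from it, or a control. Worms of every group, controls included, grew on agar plates with live bacteria until the last larval stage, and the diets began on day 1 of adulthood, which is day 4 of life. The sources used here give neither the strain, the age at collection nor the make-up of the control diet. The libraries come from whole animals, so fewer cells of a type and less RNA per cell cannot be told apart.

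In this pathway insulin-like peptides bind the receptor DAF-2 and so activate the phosphoinositide 3-kinase AGE-1, whose lipid product recruits the kinases PDK-1, AKT-1 and AKT-2 to the membrane. The phosphatase DAF-18 removes that lipid, and the AKT kinases phosphorylate the transcription factor DAF-16 and keep it out of the nucleus. When signalling is low, DAF-16 enters nuclei, many of them intestinal, and turns on stress-resistance genes, and worms with reduced daf-2 activity live long. Much of this control acts on protein phosphorylation and location, which counts of messenger RNA do not measure.

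Library totals ran from 23.1 to 33.4 in units of 1e6 counts, and the share of ribosomal RNA was 0.378% to 2.16% in 11 libraries and 14.01% in the other, desiccated thymus replicate 3. The lowest count of any member in any library was 429, for akt-2 in desiccated thymus replicate 2, and the highest was 34665, for daf-18 in desiccated thymus replicate 1. Levels are given below in counts per 1e6 counts (CPM) on totals scaled by edgeR's TMM factors, and, where genes are compared with each other, in CPM per kb of exon. Changes are log2 fold changes of the first diet named over the second, from two-sided tests in edgeR's quasi-likelihood framework with Benjamini-Hochberg adjustment over all 14610 genes at a threshold of 0.05. The 3 comparisons with the control share the same 3 control libraries. Whether the replicates were separate cultures is not stated in the labels, so p-values measure only how these samples spread, and that spread may be technical.

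The 8 genes lie apart on the genome (build WBcel235, as in the table's own coordinates). The receptor gene daf-2 lies on chromosome III at 2994514 to 3040846 on the minus strand. The kinase gene age-1 lies on chromosome II at 11519328 to 11527054 on the minus strand, and 192 bases of its exons, 4.89%, also belong to an exon of the oppositely oriented coding gene B0334.10. The phosphatase gene daf-18 lies on chromosome IV at 420011 to 425177 on the minus strand, and akt-1 on chromosome V at 10248905 to 10252845 on the plus strand. Chromosome X carries 3 members, pdk-1 at 1321344 to 1327986 and akt-2 at 14147700 to 14152070 on the plus strand and sgk-1 at 16254843 to 16262122 on the minus strand. The transcription factor gene daf-16 lies on chromosome I at 10750498 to 10776703 on the plus strand, and 84 bases of its exons, 2.28%, overlap the noncoding gene H36N01.5 on the other strand. Overlaps of pdk-1 and akt-1 with opposite genes came to 15 and 8 bases, and daf-2, daf-18, akt-2 and sgk-1 had none. No source used here gives the strand setting of the counting, so reads from these short overlaps cannot be told apart.

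Per length of exon the members spanned a wide range of transcript levels, and their order was the same in 12 of 12 libraries. The phosphatase transcript daf-18 was the highest, with 287 ± 4.28 CPM per kb under the nuclear extract, 293 ± 13.3 under desiccated thymus, 292 ± 5.33 under the cytoplasmic extract and 304 ± 5.32 in the control (SD, n = 3 each). The kinase transcript akt-1 followed with 153 ± 5.68, 158 ± 1.93 and 163 ± 4.71 CPM per kb under the nuclear, desiccated and cytoplasmic diets, against 170 ± 3.51 in the control (SD, n = 3 each). These 2 genes stood at the 97.9 and 95.3 percentiles of CPM per kb among all tested genes, whereas the other 6 members lay between the 51.7 percentile (akt-2) and the 76.1 percentile (daf-16). In control worms daf-16 averaged 46.8 CPM per kb, age-1 35.03, sgk-1 24.2, daf-2 20.1, pdk-1 15.9 and akt-2 9.53. Within each diet, no library of a gene overlapped the range of its neighbour in this order.

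**Figure D1:**
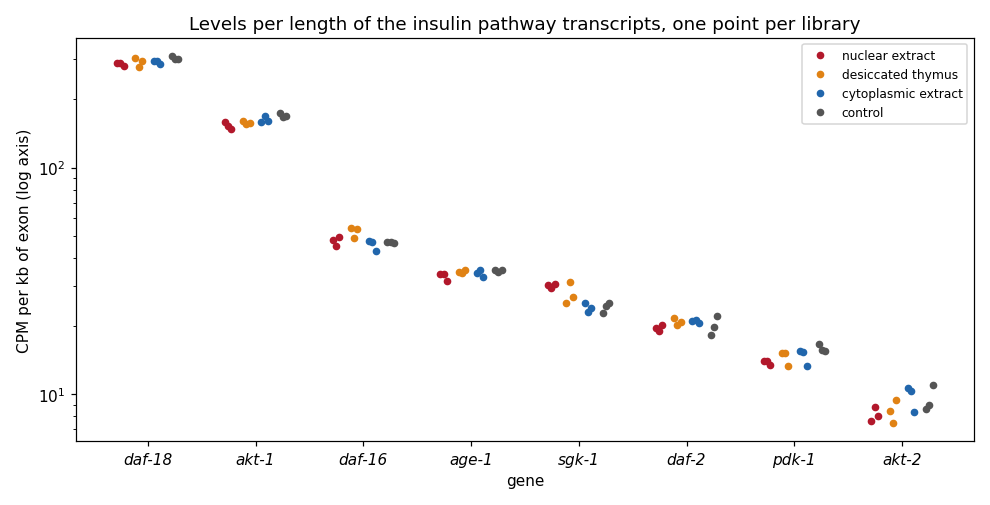
CPM per kb of exon (log axis) for the 8 genes, ordered by the control mean, with 1 point per library and the diets side by side from the nuclear extract to the control. The order from daf-18 (304 CPM per kb in the control) to akt-2 (9.53) is the same in every library.

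The pair of AKT kinases was uneven at the transcript level. Per kb, akt-1 exceeded akt-2 by 18.9 ± 1.80 times under the nuclear extract, 18.9 ± 2.07 times under desiccated thymus and 16.8 ± 2.23 times under the cytoplasmic extract, against 18.01 ± 2.50 times in the control (SD, n = 3 each). These ratios overlapped between all 4 diets. The phosphatase transcript daf-18 exceeded the opposing kinase transcript age-1 by 8.64 ± 0.237, 8.44 ± 0.339 and 8.54 ± 0.148 times under the nuclear, desiccated and cytoplasmic diets, against 8.69 ± 0.132 times in the control (SD, n = 3 each), and these ratios overlapped too. The ratio of sgk-1 to akt-1 per kb separated, which follows from the changes of these 2 genes given below and is no further result. It was 0.190, 0.192 and 0.208 under the nuclear extract and 0.159, 0.200 and 0.171 under desiccated thymus, 0.159, 0.137 and 0.150 under the cytoplasmic extract, and 0.132, 0.147 and 0.150 in the control. All 3 nuclear and all 3 desiccated thymus libraries lay above every control library for this ratio.

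Changes between diets were small for every member. Against the control, all 24 of the 95% intervals of the members' fold changes (8 genes, 3 diets) lay inside a 1.5-fold change in either direction and 21 inside 1.3-fold, with the lowest bound at 0.717-fold and the highest at 1.39-fold. The median absolute log2 fold change of the 8 members was 0.12 for the nuclear extract, 0.12 for desiccated thymus and 0.05 for the cytoplasmic extract, beside 0.17, 0.13 and 0.12 for all tested genes. Member values are unshrunken fold changes, whereas edgeR's shrunken ones gave the all-gene values. The tested genes also include some with lower counts than any member, so these medians are not like for like. Under the nuclear extract 1 member, sgk-1, rose and 1, akt-1, fell, so that 2 of 8 passed the test, beside 13.3% of all tested genes (8.79% higher and 4.51% lower). With 8 genes, a count of 2 lies near that background. In the edgeR fit with a block for replicate number pdk-1 passed as well (adjusted p = 0.046), beside 14.2% of all tested genes. Of all genes that passed for the nuclear extract, 66.1% were higher, and 92.5% were higher when libraries were scaled by their totals alone.

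**Figure D2:**
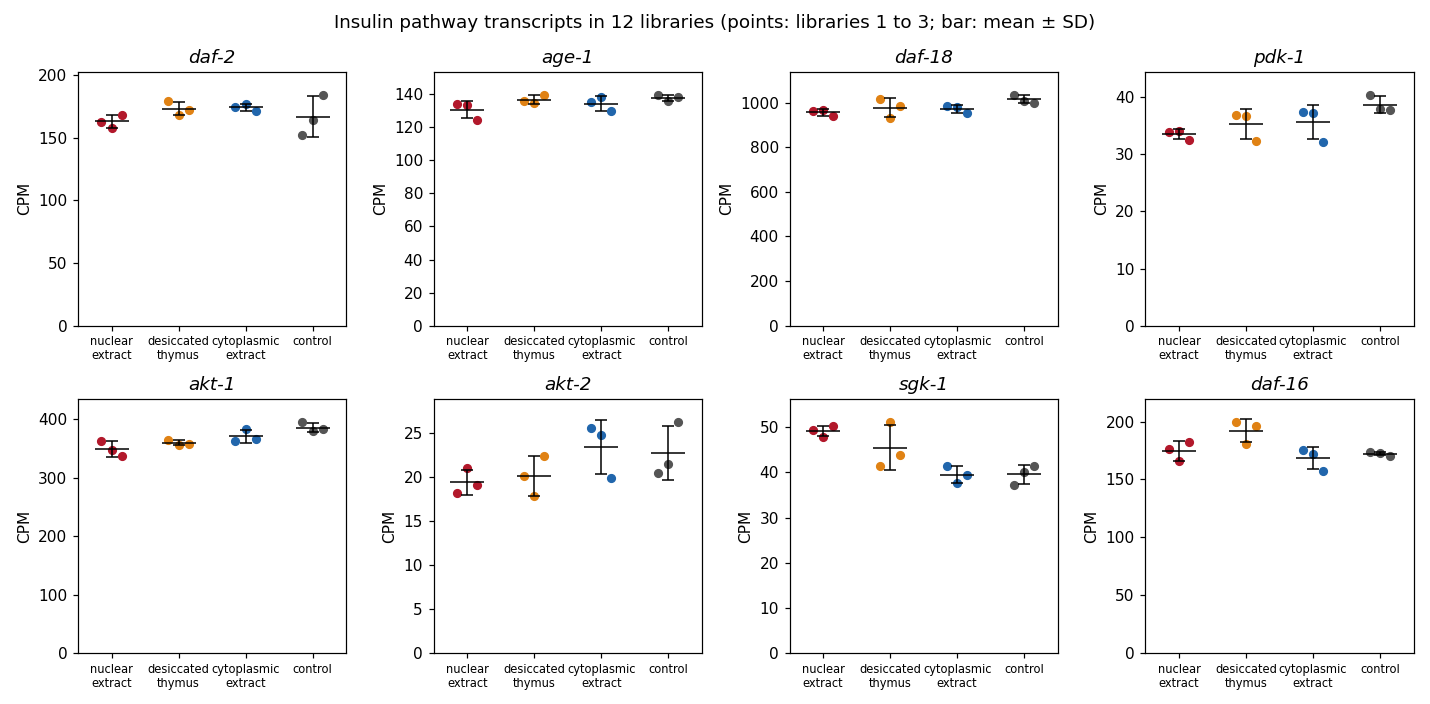
CPM of each of the 8 genes in all 12 libraries, with points for replicates 1 to 3 and bars for the mean ± SD of each diet, axes starting at 0. Under the nuclear extract sgk-1 sits at 47.96 to 50.2 CPM, above all control libraries at 37.31 to 41.32, and akt-1 sits at 337.0 to 362.8 CPM, below all control libraries at 380.1 to 395.1.

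The receptor gene daf-2 and the PI3-kinase gene age-1 did not pass in any comparison. In nuclear extract worms daf-2 had 162.7, 158.0 and 168.2 CPM and in desiccated thymus worms 179.3, 168.3 and 172.0, with 174.1, 176.9 and 171.3 under the cytoplasmic extract and 151.8, 164.1 and 184.0 in the control. The control libraries spread over the values of all other diets. The log2 fold changes of daf-2 against the control were -0.03 for the nuclear extract, 0.06 for desiccated thymus and 0.06 for the cytoplasmic extract (edgeR adjusted p = 0.74, 0.665 and 0.663). The first became 0.04 without control replicate 3, and the second became -0.01 without control replicate 1. For age-1, the nuclear extract libraries had 133.8, 133.6 and 124.3 CPM, all below the control libraries at 139.2, 135.5 and 138.2, with a log2 fold change of -0.08 (95% interval -0.16 to 0.01, edgeR adjusted p = 0.228). Its desiccated thymus libraries (134.4 to 139.4 CPM) and cytoplasmic extract libraries (129.5 to 138.2 CPM) overlapped the control.

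The phosphatase gene daf-18 had 962.3, 966.3 and 939.8 CPM in nuclear extract worms, against 1034, 1008 and 1000 in control worms. The groups did not overlap, the log2 fold change was -0.08 (SE 0.0333) and the adjusted p of edgeR's test was 0.103, while DESeq2 gave 0.042. The cytoplasmic extract libraries, at 983.6, 982.2 and 952.2 CPM, also lay below all control libraries (log2 fold change -0.06, edgeR adjusted p = 0.464). Desiccated thymus libraries had 1017, 929.7 and 986.0 CPM and overlapped the control.

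Among the kinases, pdk-1, which phosphorylates and activates the AKT kinases and SGK-1, had its highest levels in the control. It had 33.95, 34.0 and 32.43 CPM under the nuclear extract, 36.84, 36.65 and 32.22 under desiccated thymus and 37.42, 37.13 and 32.18 under the cytoplasmic extract, against 40.34, 37.81 and 37.69 in the control. Every library of every thymus diet lay below every control library, with the narrowest gap between 37.42 CPM (cytoplasmic extract) and 37.69 CPM (control). In either direction, 33.3%, 20.2% and 17.7% of all tested genes had no overlap with the control under the nuclear, desiccated and cytoplasmic diets. The diets share the same control libraries, so these separations are not independent. The log2 fold changes of pdk-1 were -0.21 (SE 0.0745) for the nuclear extract, -0.13 for desiccated thymus and -0.12 for the cytoplasmic extract, with edgeR adjusted p = 0.0785, 0.411 and 0.525, so none passed. For the nuclear extract, the adjusted p was 0.046 in the edgeR fit that had a block for replicate number, and DESeq2 gave 0.0451.

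The kinase transcript akt-1 fell under the nuclear extract. Its libraries had 362.8, 348.0 and 337.0 CPM in nuclear extract worms, against 395.1, 380.1 and 382.8 CPM in control worms. All 3 nuclear libraries lay below all 3 control libraries, and the log2 fold change was -0.14 (SE 0.0354, 95% interval -0.22 to -0.07, fold 0.905, edgeR adjusted p = 0.0163). The call was lost when libraries were scaled by totals alone (log2 fold change -0.10, edgeR adjusted p = 0.405) and without replicate 2 (0.0588) or replicate 3 (0.0832) of the nuclear extract. Desiccated thymus libraries, at 364.7, 356.6 and 357.8 CPM, were also all below the control (log2 fold change -0.10, edgeR adjusted p = 0.142), and cytoplasmic extract libraries, at 363.2, 383.0 and 365.9 CPM, overlapped it (log2 fold change -0.06, edgeR adjusted p = 0.506).

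Its relative akt-2, the rarest member, had the widest errors. It had 18.15 to 20.94 CPM under the nuclear extract, 17.85 to 22.34 under desiccated thymus and 19.88 to 25.48 under the cytoplasmic extract, against 20.45 to 26.18 in the control, and all ranges overlapped. The log2 fold change for the nuclear extract was -0.23 (SE 0.119, 95% interval -0.48 to 0.03, edgeR adjusted p = 0.214), which is larger than that of akt-1 but within an interval that includes 0. The biological coefficient of variation fitted for akt-2 was 11.1%, against 3.63% for akt-1, so a change of the size seen in akt-1 was not detectable for akt-2 at this spread.

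The transcript of sgk-1, the serum- and glucocorticoid-regulated kinase homologue that also works downstream of the TORC2 complex, rose under the nuclear extract. It had 49.44, 47.96 and 50.20 CPM in nuclear extract worms, against 37.31, 40.05 and 41.32 CPM in control worms. All 3 nuclear libraries lay above all 3 control libraries, with a log2 fold change of 0.31 (SE 0.0749, 95% interval 0.15 to 0.47, fold 1.24, edgeR adjusted p = 0.0142). This was the largest change of any member against the control, and the call was lost without nuclear extract replicate 3 (edgeR adjusted p = 0.0581). Desiccated thymus libraries had 41.48, 51.13 and 43.85 CPM, each above the control libraries, with a log2 fold change of 0.20 that did not pass (edgeR adjusted p = 0.184) and was 0.11 without replicate 2 of that diet. Cytoplasmic extract libraries had 41.43, 37.67 and 39.39 CPM and overlapped the control. Their fold change was 0.998 with a 95% interval of 0.893 to 1.12 (edgeR adjusted p = 0.99).

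At the end of the pathway, daf-16, the FOXO transcription factor, was highest under desiccated thymus. It had 176.5, 165.6 and 182.3 CPM under the nuclear extract, 199.5, 180.5 and 196.5 under desiccated thymus and 175.3, 172.2 and 157.7 under the cytoplasmic extract, against 173.6, 173.1 and 170.6 in the control. The desiccated thymus libraries lay above all control libraries and above all cytoplasmic extract libraries, but overlapped the nuclear extract libraries. Against the control its log2 fold change was 0.16 (SE 0.0501, fold 1.11, edgeR adjusted p = 0.106) and did not pass. The nuclear and cytoplasmic extracts gave 0.02 and -0.03 (edgeR adjusted p = 0.833 and 0.805), and both overlapped the control.

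**Figure D3:**
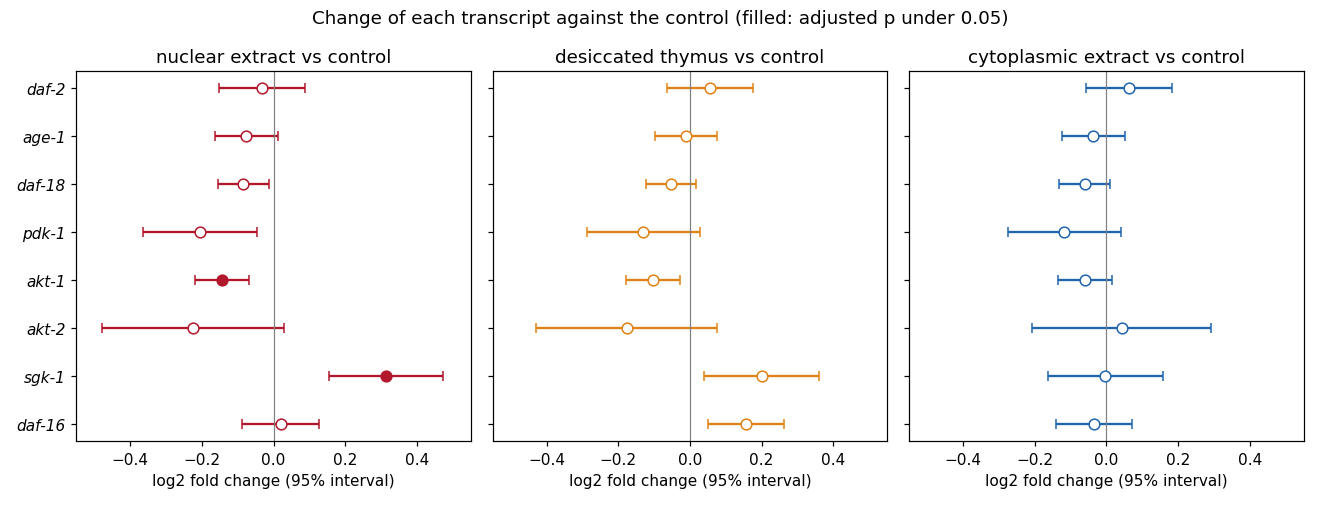
Log2 fold changes of the 8 genes against the control with 95% intervals, 1 panel per thymus diet, the filled points marking an edgeR adjusted p under 0.05. In the nuclear extract panel sgk-1 (0.31) and akt-1 (-0.14) are filled, and no point is filled for desiccated thymus or the cytoplasmic extract.

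For desiccated thymus against the control, 0 of 8 members passed edgeR's test, beside 3.87% of all tested genes. At an unadjusted p under 0.05 there were 2 higher members (sgk-1 and daf-16) and 1 lower (akt-1), and DESeq2 called 0. Without desiccated thymus replicate 3, the library rich in ribosomal RNA, 0 of 8 passed as well, with log2 fold changes of 0.21 for sgk-1, 0.14 for daf-16, -0.10 for akt-1 and -0.07 for pdk-1. For the cytoplasmic extract against the control, 0 of 8 passed, beside 0.712% of all tested genes, with 0 at an unadjusted p under 0.05 and 0 by DESeq2. Groups of 3 libraries that do not overlap were seen for 5 members under the nuclear extract, 4 under desiccated thymus and 2 under the cytoplasmic extract. Over all tested genes the shares without overlap were 33.3%, 20.2% and 17.7%.

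Comparing the thymus diets with each other, sgk-1 was again the member that differed. Between the nuclear and the cytoplasmic extract its log2 fold change was 0.32 (SE 0.0748, 95% interval 0.16 to 0.48, edgeR adjusted p = 0.0427), with all 3 nuclear libraries above all 3 cytoplasmic ones. It was the only member of 8 that passed edgeR's test here, beside 1.78% of all tested genes. This call was lost in 8 of the 12 fits that left out 1 library, with edgeR adjusted p between 0.0589 (without control replicate 2) and 0.227 (without cytoplasmic extract replicate 2). The 8 libraries were control replicate 2, desiccated thymus replicate 3 and all 3 replicates of each extract. It was also lost with library totals alone (0.091). Members without overlap numbered 3 (daf-2, akt-1 and sgk-1), beside 22.6% of all tested genes.

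For the nuclear extract against desiccated thymus 0 of 8 members passed edgeR's test, beside 0.164% of all tested genes, with 1 lower member (daf-16) at an unadjusted p under 0.05 and 0 by DESeq2. Its daf-16 log2 fold change was -0.14 (edgeR adjusted p = 0.258), and 2 members, daf-2 and age-1, did not overlap, beside 21.0% of all tested genes. For desiccated thymus against the cytoplasmic extract 0 of 8 passed edgeR's test, beside 1.21% of all tested genes, with 2 higher members (sgk-1 and daf-16) at an unadjusted p under 0.05. These 2 were also the members without overlap, beside 16.9% of all tested genes. For daf-16 that log2 fold change was 0.19 (SE 0.0502, fold 1.14) with an adjusted p of 0.089 from edgeR and 0.024 from DESeq2. With DESeq2 1 member was called, beside 2.25% of all tested genes. Across the 4 diets together 1 of 8 members passed, sgk-1 (edgeR adjusted p = 0.0265), beside 7.67% of all tested genes. That call was lost with library totals alone (0.0538) and without any 1 of control replicate 2 (0.0517), cytoplasmic extract replicate 2 (0.0637) and nuclear extract replicates 1, 2 and 3 (0.0719, 0.0602 and 0.0878).

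The genes that signal to the pathway were sparse. Of the 40 genes for insulin-like peptides, the ligands of DAF-2, 22 had enough counts to be tested. Under the nuclear extract 2 of 22 rose, ins-2 (log2 fold change 2.02, edgeR adjusted p = 0.0236) and ins-19 (0.76, 0.0263), and under desiccated thymus 2 of 22 rose, ins-19 (0.83, 0.0347) and ins-7 (0.76, 0.0173). None fell. Among all tested genes 8.79% were higher under the nuclear extract and 2.97% under desiccated thymus, and 2 of 22 lies near the first share. Under the cytoplasmic extract 0 of 22 passed edgeR's test, beside 0.712% of all tested genes. At an unadjusted p under 0.05 there were 3 higher, and DESeq2 called 2 higher. DESeq2 called 2.36% of all tested genes for that diet in either direction. Mean levels of ins-19, ins-2 and ins-7 under that diet were 13.4, 2.45 and 11.4 CPM, against 7.62, 0.652 and 8.26 CPM in the control. The median log2 fold change of the 22 was 0.24, 0.19 and 0.17 under the nuclear, desiccated and cytoplasmic diets, beside 0.02, -0.00 and 0.00 for all tested genes.

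Of these ligands, ins-7, which acts from the intestine as an agonist of DAF-2, had 13.82, 14.39 and 13.57 CPM in desiccated thymus worms, against 10.84, 6.527 and 7.415 CPM in control worms. The groups did not overlap, and the call was lost without any 1 of desiccated thymus replicates 1 and 2 and control replicates 2 and 3 (edgeR adjusted p = 0.0614 to 0.0763). For ins-19 the nuclear extract libraries had 15.53, 11.70 and 11.10 CPM and the desiccated thymus libraries 13.11, 15.56 and 11.54, all higher than the control libraries at 10.56, 6.033 and 6.269 CPM. The nuclear extract call of ins-19 was lost in 6 alternatives (edgeR adjusted p = 0.0513 to 0.0858), among them without any 1 of control replicates 2 and 3 and nuclear extract replicates 1 and 2. Its desiccated thymus call was lost in 10 (0.055 to 0.13), among them without any 1 of control replicates 2 and 3, desiccated thymus replicates 1 and 2 and the 3 cytoplasmic extract libraries. The counts of ins-2 were low, at 2.008, 2.415 and 3.562 CPM under the nuclear extract, against 0.0797, 0.462 and 1.41 CPM in the control. That call was lost without any 1 of control replicate 2 and nuclear extract replicates 2 and 3, with no filter on low counts and with only the 2 groups fitted (edgeR adjusted p = 0.0536 to 0.0901).

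Of 25 other regulators of the pathway, 22 were tested. Under the nuclear extract 1 of 22 rose, pqm-1 (log2 fold change 0.39, edgeR adjusted p = 0.00553), and 4 fell. Among all tested genes 8.79% were higher and 4.51% lower under that diet. PQM-1 is a zinc-finger transcription factor that occupies intestinal nuclei when DAF-16 does not. It had 63.77, 57.65 and 52.34 CPM in nuclear extract worms, against 42.37, 42.39 and 48.20 CPM in control worms, without overlap, and the call held in every alternative run. It also rose against desiccated thymus (39.43, 41.60 and 45.37 CPM), with a log2 fold change of 0.46 (edgeR adjusted p = 0.0319). It was the only 1 of 22 that passed there, beside 0.164% of all tested genes. That call was lost without any 1 of desiccated thymus replicates 1 and 2 and nuclear extract replicates 1 and 2 (0.0814 to 0.199).

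The 4 lower regulators under the nuclear extract moved little. They were eak-7 (log2 fold change -0.20, edgeR adjusted p = 0.0111), whose product acts beside AKT-1 on DAF-16, rict-1 (-0.17, 0.0159), the Rictor subunit of TORC2, and skn-1 (-0.16, 0.0345), the Nrf homologue that the AKT and SGK-1 kinases phosphorylate. The fourth was prmt-1 (-0.14, edgeR adjusted p = 0.0113), the arginine methyltransferase that modifies DAF-16, which falls outside the naming rule and is named after its value was seen. All 4 calls were lost with library totals alone (edgeR adjusted p = 0.172 to 0.405) and without nuclear extract replicate 3 (0.0574 to 0.136). Those of rict-1 (0.0684) and skn-1 (0.0638) were also lost without nuclear extract replicate 2, and that of skn-1 without nuclear extract replicate 1 or any 1 control library. Under desiccated thymus 0 of 22 regulators passed edgeR's test (6 lower at an unadjusted p under 0.05, 0 by DESeq2), and under the cytoplasmic extract 0 of 22 (1 higher at an unadjusted p under 0.05, 0 by DESeq2). Among all tested genes 3.87% passed for desiccated thymus and 0.712% for the cytoplasmic extract. The list medians were -0.04, -0.05 and -0.01 for the nuclear, desiccated and cytoplasmic diets, beside 0.02, -0.00 and 0.00 for all tested genes. Between the extracts, eak-7 was lower under the nuclear one (-0.19, edgeR adjusted p = 0.0422). It was the only 1 of 22 that passed there, beside 1.78% of all tested genes. That call held in the fits without control replicate 1 or 3 or desiccated thymus replicate 2, and was lost without any other 1 library (0.059 to 0.192) and with library totals alone (0.256).

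DAF-16 class 1 targets are genes known to be more active when DAF-16 is nuclear, and class 2 targets genes known to be less active then. Of 18 class 1 genes written down, 16 were tested. Under the nuclear extract 2 of 16 rose, mdl-1 (log2 fold change 0.92, edgeR adjusted p = 0.0144), which encodes a MAD-like transcription factor, and fat-5 (0.72, 0.00856), a fatty acid desaturase. A further 2 of 16 fell, ftn-1 (-0.76, 0.00181), an iron-storing ferritin, and sip-1 (-0.25, 0.0153), a small heat shock protein. The same 2 genes, ftn-1 (-0.61, 0.0133) and sip-1 (-0.24, 0.0381), were the ones that passed under desiccated thymus, both lower. Under the cytoplasmic extract 0 of 16 passed edgeR's test, with 5 lower at an unadjusted p under 0.05 and 4 called lower by DESeq2. For that diet 0.712% of all tested genes passed edgeR's test in either direction, and 2.36% passed with DESeq2. The median of the 16 was -0.15, -0.12 and -0.15 under the nuclear, desiccated and cytoplasmic diets, beside 0.02, -0.00 and 0.00 for all tested genes. Among all tested genes 8.79% were higher and 4.51% lower under the nuclear extract, and 2.97% higher and 0.897% lower under desiccated thymus.

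The ferritin transcript ftn-1 had 14.48, 14.75 and 14.62 CPM under the nuclear extract and 14.87, 17.85 and 16.16 under desiccated thymus, against 20.41, 23.21 and 30.92 in the control. Neither diet overlapped the control. The nuclear extract call held in every alternative run, and the desiccated thymus call did not hold without replicate 1 of that diet (edgeR adjusted p = 0.0756), without replicate 3 (0.0558) and with only the 2 groups fitted (0.0758). Both higher genes, mdl-1 (65.97, 43.24 and 51.25 CPM, against 23.32, 33.99 and 27.56 in the control) and fat-5 (86.63, 102.4 and 96.54 CPM, against 55.21, 53.93 and 64.02), lost their call only without control replicate 1 (edgeR adjusted p = 0.0643 and 0.0505). The sip-1 exons share 123 bases, 19.2%, with the oppositely oriented noncoding gene F43D9.8, and its calls were lost in 4 alternatives for the nuclear extract (0.0517 to 0.0657, among them without nuclear extract replicate 2 or 3) and 11 for desiccated thymus (0.0534 to 0.153, among them the fit with a block for replicate number at 0.0638, and without any 1 library of that diet, control replicate 1 or 2, cytoplasmic extract replicate 1 or 2, or nuclear extract replicate 2).

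All 12 class 2 targets were tested, and 2 rose under the nuclear extract. They were pept-1 (log2 fold change 1.86, edgeR adjusted p = 8.34e-05), the intestinal transporter that takes up small peptides, and dod-23 (0.56, 0.000882). The pept-1 transcript had 36.27, 28.37 and 32.35 CPM under the nuclear extract and 19.01, 20.59 and 19.89 under desiccated thymus, against 8.451, 9.890 and 8.333 in the control. Cytoplasmic extract libraries had 14.67, 9.949 and 18.42 CPM, and every library of all 3 thymus diets was above every control library. Under desiccated thymus pept-1 (1.15, edgeR adjusted p = 0.00415) and ins-7 passed, so that 2 of 12 rose, or 4 of 12 in the fit with the replicate number as a block. That block fit called 4.05% of all tested genes for this diet in either direction. Under the cytoplasmic extract 0 of 12 passed edgeR's test, with 3 higher at an unadjusted p under 0.05 and 2 called by DESeq2. The nuclear extract also exceeded the cytoplasmic one for pept-1 (1.18, edgeR adjusted p = 0.0047) and dod-23 (0.53, 0.00503), and the pept-1 call was lost with only the 2 groups fitted (0.069). List medians were 0.06, 0.16 and 0.02 for the nuclear, desiccated and cytoplasmic diets, and pept-1 also stands in the list of intestinal markers and ins-7 in that of the ligands. Beside these counts, 8.79% of all tested genes were higher and 4.51% lower under the nuclear extract, and 2.97% higher and 0.897% lower under desiccated thymus. Under the cytoplasmic extract 0.712% passed edgeR's test in either direction, and 2.36% passed with DESeq2.

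**Figure D4:**
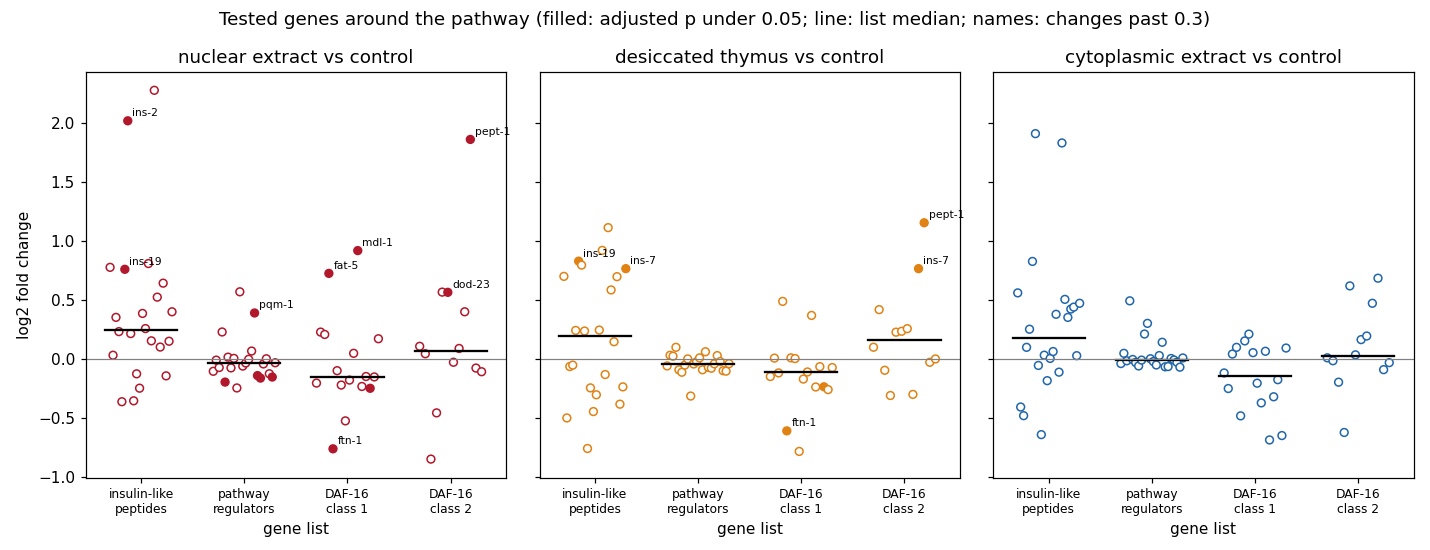
Log2 fold changes of the tested insulin-like peptides (22), pathway regulators (22), DAF-16 class 1 targets (16) and class 2 targets (12) against the control, 1 panel per thymus diet, with filled points for an edgeR adjusted p under 0.05, black lines for list medians and names for passing genes past 0.3. In the nuclear extract panel pept-1 (1.86) and ins-2 (2.02) are the highest filled points and ftn-1 (-0.76) the lowest, and the cytoplasmic panel has none filled.

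Some tissue markers also changed, and the shares of all tested genes to set beside these counts are 8.79% higher and 4.51% lower under the nuclear extract and 2.97% higher and 0.897% lower under desiccated thymus. Under the cytoplasmic extract 0.712% of all tested genes passed edgeR's test in either direction, and 2.36% passed with DESeq2. Of 10 intestinal markers 5 rose under the nuclear extract, with pgp-1 at a log2 fold change of 2.08, pept-1 at 1.86 and pho-1 at 1.00, and 4 rose under desiccated thymus, while 0 passed edgeR's test under the cytoplasmic extract (2 higher and 1 lower at an unadjusted p under 0.05, 2 called by DESeq2). The ifb-2 call under the nuclear extract was lost in 7 alternatives (edgeR adjusted p = 0.0562 to 0.108), among them without any 1 of control replicates 1 and 3 and nuclear extract replicates 2 and 3. The pho-1 call under desiccated thymus was lost without replicate 2 of that diet (0.0543). Summed over all 10, intestinal markers came to 21150 to 22610 CPM under the nuclear extract, 22650 to 24320 under desiccated thymus and 20150 to 20830 under the cytoplasmic extract, against 19880 to 26440 in the control, and all diets overlapped the control. Most of that sum is the yolk gene vit-6, and without it the sums were 1315 to 1356, 1231 to 1447 and 1133 to 1352 CPM, against 1101 to 1196 in the control. Without vit-6 the nuclear extract and desiccated thymus libraries lay above all control libraries, so whether the sum separates the diets depends on that 1 gene.

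Of 13 germline markers 1 rose (glh-1) and 4 fell (oma-1, chs-1, oma-2 and cgh-1) under the nuclear extract. All 4 downward calls were lost with library totals alone (edgeR adjusted p = 0.29 to 0.659), and over all alternatives glh-1 was lost in 5, oma-2 in 6 and cgh-1 in 7. Those of glh-1 were without any 1 of control replicates 2 and 3, desiccated thymus replicate 3 and nuclear extract replicates 1 and 2 (0.0531 to 0.0911). The fits without 1 library that lost oma-2 left out control replicate 1 or 2 or any nuclear extract library (0.0544 to 0.114), and those that lost cgh-1 any control library or nuclear extract replicate 2 or 3 (0.055 to 0.152). The germline sum was 9554 to 9870 CPM under the nuclear extract, 9847 to 10300 under desiccated thymus and 9643 to 10150 under the cytoplasmic extract, against 10190 to 10490 in the control. The nuclear and the cytoplasmic extract libraries both lay below all control libraries, and the desiccated thymus libraries overlapped the control. No marker of intestine or germline was at 0, and the part of either in the values of sgk-1 and akt-1 was not tested.

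Among the other tissue lists, 3 of 9 hypodermis markers rose under the nuclear extract, 4 of 10 neuron markers rose and 1 fell, 1 of 5 tested embryo markers fell, and 0 of 10 muscle and 0 of 8 tested sperm markers passed edgeR's test (2 higher and 0 at an unadjusted p under 0.05, 0 and 0 by DESeq2). Of these nuclear extract calls, only the hypodermis marker dpy-7 and the neuron marker unc-13 kept their call in every alternative run. Under desiccated thymus 1 of 5 embryo markers fell, pie-1 (log2 fold change -0.15, edgeR adjusted p = 0.048), a call lost in 15 of 19 alternatives (0.0562 to 0.164), among them the fit with a block for replicate number (0.0611) and every fit without 1 library except that without control replicate 3. None of the hypodermis, neuron, muscle or sperm markers passed, with 4, 1, 0 and 0 of them higher at an unadjusted p under 0.05 and 2, 0, 0 and 0 called by DESeq2. For desiccated thymus DESeq2 called 5.94% of all tested genes in either direction. Under the cytoplasmic extract 0 germline, embryo, hypodermis, neuron, muscle or sperm markers passed edgeR's test, with 5 germline and 1 embryo marker lower and 4 hypodermis and 3 neuron markers higher at an unadjusted p under 0.05. DESeq2 called 2 germline markers lower and 2 hypodermis markers higher there, and 0 of the others.

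Over the 12 libraries, the tested gene whose log2 CPM followed each member most closely was picked by Pearson's r. The points share their libraries, and each was the highest of 14610 genes, so the values are a description. They were act-5, an actin of intestinal microvilli, for sgk-1 (r = 0.941, Spearman's rho = 0.888), prp-39 for akt-1 (0.972 and 0.993), C47D12.2 for daf-18 (0.973 and 0.951) and asm-1 for akt-2 (0.945 and 0.916). For daf-2 it was Y32H12A.8 (0.931 and 0.930), for age-1 the pseudogene asna-2 (0.921 and 0.839), for pdk-1 ragc-1 (0.921 and 0.825) and for daf-16 coh-4 (0.893 and 0.930). No member was the closest gene of another member.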

How the data were processed

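The authors deposited a table of whole-number read counts per gene for all 12 libraries. Per the submitters' processing notes, the tools were Trimmomatic, STAR, featureCounts and DESeq2, named without versions. Per the labels' protocols, RNA was enriched with oligo(dT) beads and read in pairs, although the molecule field says nuclear RNA. Columns bear diet initials and a replicate number, matched to titles by those initials, which is an inference. Gene identifiers were looked up in a RefSeq table of WBcel235, and 46925 of 46929 matched.

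Genes were kept with edgeR's filterByExpr (minimum count 10, by group), which left 14610, and scaled by TMM. edgeR 4.0.16 (R 4.3.3) then fitted 4 group means to the 12 libraries in 1 robust quasi-likelihood model, which leaves 8 residual degrees of freedom. The biological coefficient of variation over all genes was 12.7%. Every adjusted p comes from this fit with Benjamini-Hochberg adjustment unless DESeq2 1.42.0 or another alternative is named. Each alternative was adjusted over the genes tested in it. CPM per kb divides by the table's exon length. With 3 libraries against 3, the smallest p of an exact permutation test is 0.1, so none was used. Alternatives were RLE factors, library totals alone, no count filter, DESeq2, only the 2 groups compared, a replicate block, rRNA genes left out, and each library left out in turn. The fit was run on counts simulated from its own fitted spread without a replicate effect, which cannot show whether that spread suits these data.

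The 8 members, the lists (insulin-like peptides, regulators, DAF-16 class 1 and class 2 targets, and markers of intestine, germline, embryo, sperm, hypodermis, neuron and muscle) and the alternatives were chosen with earlier results of these data known. Named were all 8 members, up to 4 passing genes of largest change per list and comparison, and the closest gene of each member by r. Of 18 class 1 genes written down, 1 had no matching symbol and 1 had no counts.

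Replicate pairs differed by more than sampling noise (chi-square per degree of freedom 5.84 to 30.9, and 202 and 319 for the pairs with desiccated thymus replicate 3), so none was merged. Deviations from the group means of same-numbered libraries correlated across genes for the nuclear extract and the control (0.383, 0.669 and 0.33), for desiccated thymus and the control (0.149, 0.471 and 0.199) and for the nuclear extract and desiccated thymus (0.254, 0.473 and 0.197), so these numbers were taken as pairs from the data, since the labels name no shared batch. Some libraries of unlike number correlated as much, so the pairing is uncertain. Desiccated thymus replicate 3 with control replicate 1 gave 0.241, and nuclear extract replicate 1 with desiccated thymus replicate 3 gave 0.197. For the nuclear extract and the control the highest value at unlike numbers was 0.218. Cytoplasmic extract replicate 1 correlated negatively with replicate 1 of the other diets (-0.353 with the nuclear extract, -0.242 with desiccated thymus and -0.358 with the control), so its comparisons were not taken as paired. The main fit holds no block for replicate number, and the block was run only as an alternative.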

Additional observations from a re-analysis of the deposited data

How the results depend on the processing

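Of 912 member log2 fold changes recomputed under the alternatives, 886 kept their call and direction or moved within their error, 14 lost the call, 4 gained one and 8 changed sign or moved without a call on either side. Members passing for the nuclear extract against the control numbered 2, but 1 with library totals alone, 4 with DESeq2 and 0 to 2 with 1 library left out. The shares of all tested genes were 13.3%, 9.27% with library totals alone, 17.3% with DESeq2 and 5.92% to 13.9% with 1 library left out. For the nuclear against the cytoplasmic extract the number was 1, but 0 with library totals alone, 0 with the replicate block (sgk-1 edgeR adjusted p = 0.0523) and 0 to 1 with 1 library left out. The shares of all tested genes there were 1.78%, 1.63%, 2.03% and 0.586% to 2.84%. For desiccated thymus against the cytoplasmic extract the number of members was 0, and 1 with DESeq2, beside 1.21% and 2.25% of all tested genes. Across the 4 diets the number of members was 1, but 2 with RLE factors (akt-1 joined, 0.0466), 0 with library totals alone, 3 with DESeq2 and 0 to 2 with 1 library left out. The share of all tested genes across the 4 diets was computed for the main fit only, so these alternative counts have no background beside them. Apart from pdk-1 under the nuclear extract, the block changed no call of a member in the paired comparisons. For the cytoplasmic extract against the control the members passing stayed at 0 in every alternative run. Class 1 targets passing under desiccated thymus numbered 2, against 4 with DESeq2 and 0 with only the 2 groups fitted. The shares of all tested genes for that diet were 3.87%, 5.94% and 2.39%. The cause of these shifts was not tested.

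Over all genes, 1943 passed for the nuclear extract, 565 for desiccated thymus and 104 for the cytoplasmic extract, against 1114, 327 and 46 with only the 2 groups fitted and 2521, 868 and 345 with DESeq2. Scaling by totals put 83.1% of the cytoplasmic extract's calls higher, against 70.2% with TMM, and 36.6% of those of desiccated thymus over the cytoplasmic extract, against 65.5%. With 3 libraries per group, the lowest member (akt-2) had a 95% interval of 0.717-fold to 1.02-fold for the nuclear extract.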
